A study of Ovis aries with 41 samples.

Results

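The 9 genes described here were chosen by their symbols from the 31182 genes of the sheep count table. The choice was made with earlier results of these data known. They are the T-box genes *TBX2*, *TBX3*, *TBX4*, *TBX15* and *TBX18*, the hind limb homeobox gene *PITX1*, and the HOX cofactor genes *MEIS1*, *MEIS2* and *PBX3*. All 9 had reads in tail skin and all 9 passed the filter on low counts for the comparisons between tail positions. *TBX4* had few reads and passed mainly through the *A/A* mid-tail and tip, where it was high. It had 40 and 67 reads there, against 3 to 13 in each other group. *PITX1* had 74 reads at the tip, against 20 at each other position. T-box proteins bind DNA through a shared domain and act during development as activators or repressors, often in a restricted part of a limb, a somite or a field of skin. MEIS and PBX proteins are homeodomain proteins of the TALE class that bind DNA together with HOX proteins. *PITX1* specifies the hind limb in mouse and chick, where *TBX4* acts downstream of it.

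The samples were pieces of tail skin from adult rams of the Improved Jezersko-Solčava sheep (IJS), each ram sampled at 3 places along the tail (base, mid-tail and tip). The 3 *D/D* rams (871787, 871868 and 871869) were homozygous for the derived allele of the *HOXB13* promoter, and the 4 *A/A* rams (835507, 871772, 871784 and 871932) for the ancestral allele, and the alleles differ by an insertion. No heterozygous rams were sequenced, all animals were males of a single breed, and the rams were picked for contrasting tail length, so that genotype and tail length cannot be told apart. The mid-tail and tip also lay further from the base in *D/D* rams. The paper therefore holds that RNA-seq levels at these sites cannot be set directly against each other across genotypes. Each ram gave 2 libraries per position, except for 1 library at the mid-tail of *D/D* ram 871869, which makes 41 libraries. Whether the libraries of a ram came from separate pieces of skin is not stated, so they were added up into 21 ram sums, with the ram as the replicate. Levels are given per ram in CPM (counts relative to the library size after TMM scaling), which allow no comparison between genes, as they are not per length.

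The libraries held 9177395 to 23431409 counts, and the ram sums 17132063 to 37645752. Libraries of the same ram and position correlated at 0.921 to 0.991 over genes (log2 CPM), with the lowest value at the mid-tail of *A/A* ram 871784, and no pair was a copy of another. Keratinocyte markers summed to at least 11400 CPM and fibroblast markers to at least 3170 CPM in every ram sum. The position comparisons covered 19444 genes in the quasi-likelihood test of edgeR with the ram as a block, and a gene is said to have risen or fallen where its adjusted p was under 0.05.

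From tail base to tail tip, *TBX3*, *TBX4* and *TBX18* rose over the 7 rams, and no member fell. These 3 of 9 members compare with 445 of 19444 genes that rose, or 2.29%. As the members were chosen with earlier results known, such shares and medians describe them and do not test for an excess. *TBX3* was 2.13-fold higher at the tip, *TBX18* 1.81-fold and *TBX4* 3.02-fold. All 9 members had a positive log2 fold change, with a median of 0.34, beside a median of -0.02 over all genes, of which 47.3% were positive. In bulk skin, more cells that express a gene and more RNA per cell cannot be told apart.

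**Figure D1:**
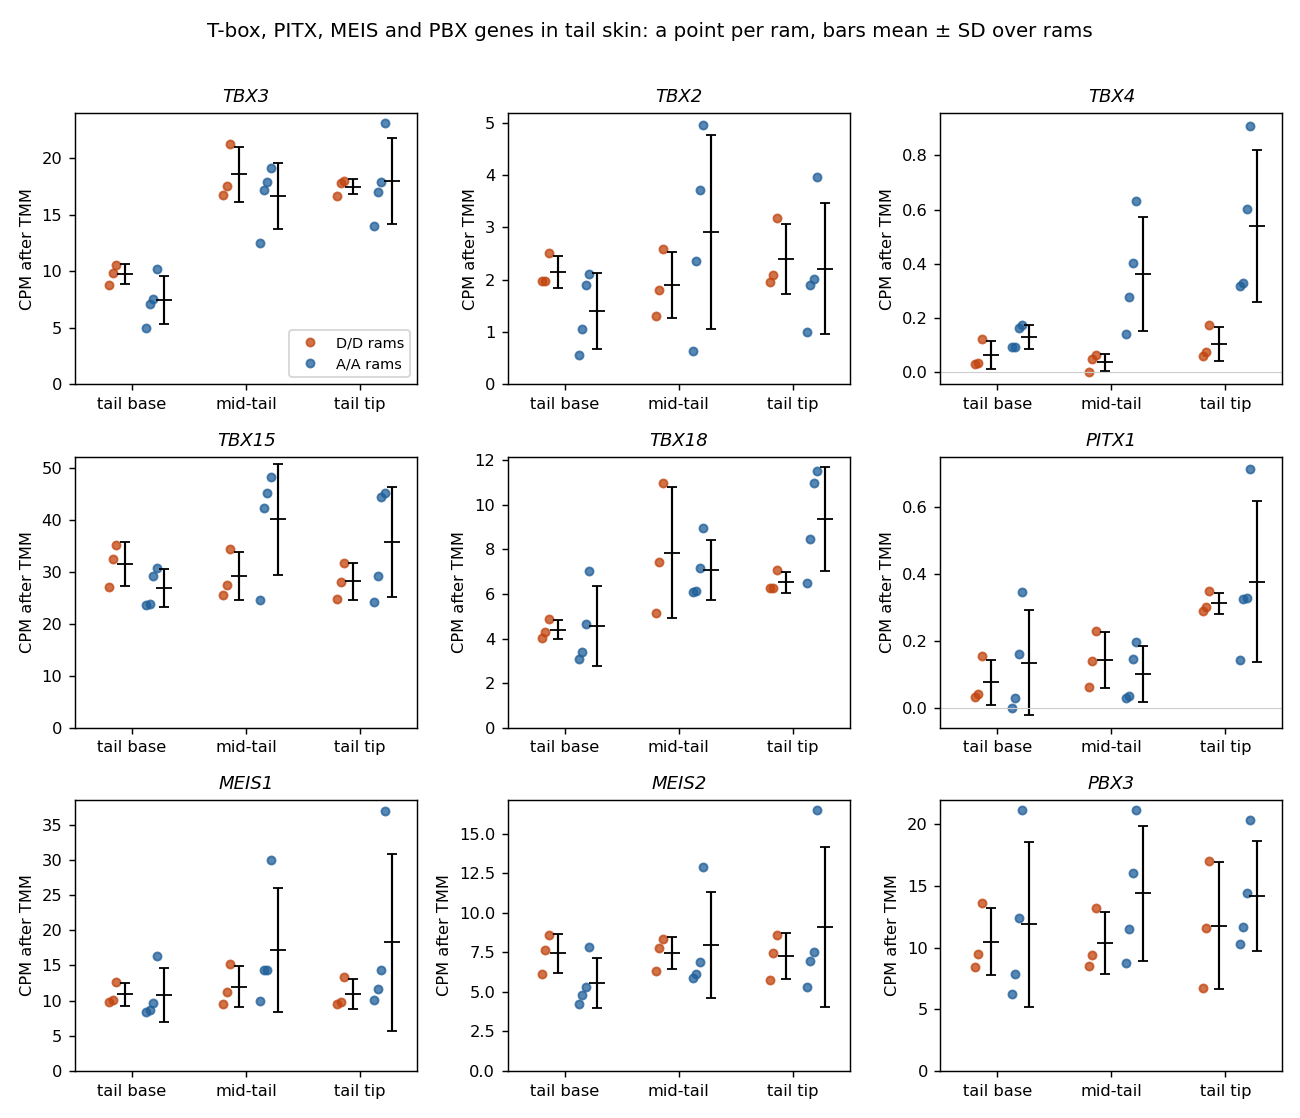
CPM after TMM scaling (vertical axes, a scale per gene) of the 9 genes at the base, the mid-tail and the tip of the tail, with a point per ram (*D/D* left, *A/A* right) and bars for the mean ± SD over 3 *D/D* and 4 *A/A* rams. *TBX3* lay between 12.5 and 23.1 CPM at the mid-tail and tip, above every value at the base (5.01 to 10.6 CPM), while *TBX4* and *PITX1* stayed under 1 CPM throughout.

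*TBX3* encodes a T-box repressor needed for limb, mammary and other appendage outgrowth, whose regulatory variants in the horse set where pigment enters the hair. At the tail base it had 10.6, 8.84 and 9.86 CPM in *D/D* rams 871787, 871868 and 871869, against 10.2, 7.52, 5.01 and 7.13 CPM in *A/A* rams 835507, 871772, 871784 and 871932. At the mid-tail, in the same order of rams, it had 21.3, 16.8 and 17.6 CPM in *D/D* rams, against 17.9, 19.2, 12.5 and 17.2 CPM in *A/A* rams. At the tail tip the values were 17.8, 18.0 and 16.7 CPM in *D/D* rams, against 17.0, 23.1, 17.9 and 14.0 CPM in *A/A* rams. No value of the mid-tail or tip overlapped with the base in either genotype (in *D/D* rams 9.33% of genes were as clear of the base at the tip and 6.99% at the mid-tail, in *A/A* rams 1.53% and 0.751%), and the ranges of the genotypes overlapped at every position. Every ram was higher at the tip than at its own base (7 of 7, which 3.65% of genes showed) and every ram was higher at the mid-tail (7 of 7, which 1.81% of genes showed).

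Over 7 rams, *TBX3* had a log2 fold change of 1.09 ± 0.13 (SE) at the tip (adjusted p = 0.000144, edgeR). The mid-tail value was 1.07 ± 0.13 (adjusted p = 0.00109). Between the tip and the mid-tail it was 0.02 ± 0.13, with a 95% interval of -0.26 to 0.29, so that no further difference beyond the mid-tail was detected. *TBX3* was the only member called at the mid-tail over 7 rams, where 18 of 19444 genes rose (0.0926%), and it held rank 4 by p among all genes there. Ordered by mean, its level was 18.6 ± 2.41 CPM (SD, n = 3) in the *D/D* mid-tail, 18.0 ± 3.78 (n = 4) in the *A/A* tip, 17.5 ± 0.676 (n = 3) in the *D/D* tip, 16.7 ± 2.92 (n = 4) in the *A/A* mid-tail, 9.75 ± 0.864 (n = 3) in the *D/D* base and 7.47 ± 2.15 (n = 4) in the *A/A* base. The values of the rams overlapped between neighbours in this order, except between the *A/A* mid-tail and the *D/D* base.

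Within genotypes, the difference of *TBX3* between tip and base was 0.82 ± 0.19 on the log2 scale in *D/D* rams (adjusted p = 0.0665, not past the threshold) and 1.3 ± 0.17 in *A/A* rams (adjusted p = 0.00176). For the mid-tail it was 0.93 ± 0.19 in *D/D* rams (adjusted p = 0.297) and 1.19 ± 0.17 in *A/A* rams (adjusted p = 0.021). The *A/A* call at the mid-tail was lost without any 1 of the rams 871772, 871787, 871868, 871869 and 871932. The *D/D* rams among these enter its estimate of the spread. The *D/D* change was called at both positions with DESeq2 on the ram sums, which called 518 genes at the *D/D* tip and 40 at the *D/D* mid-tail. The change at the tip was smaller in *D/D* than in *A/A* rams by 0.48 ± 0.26, a difference that did not pass the test (95% interval of -1.02 to 0.06, adjusted p = 0.789). A call in *A/A* rams alone does not show that the genotypes differed.

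**Figure D2:**
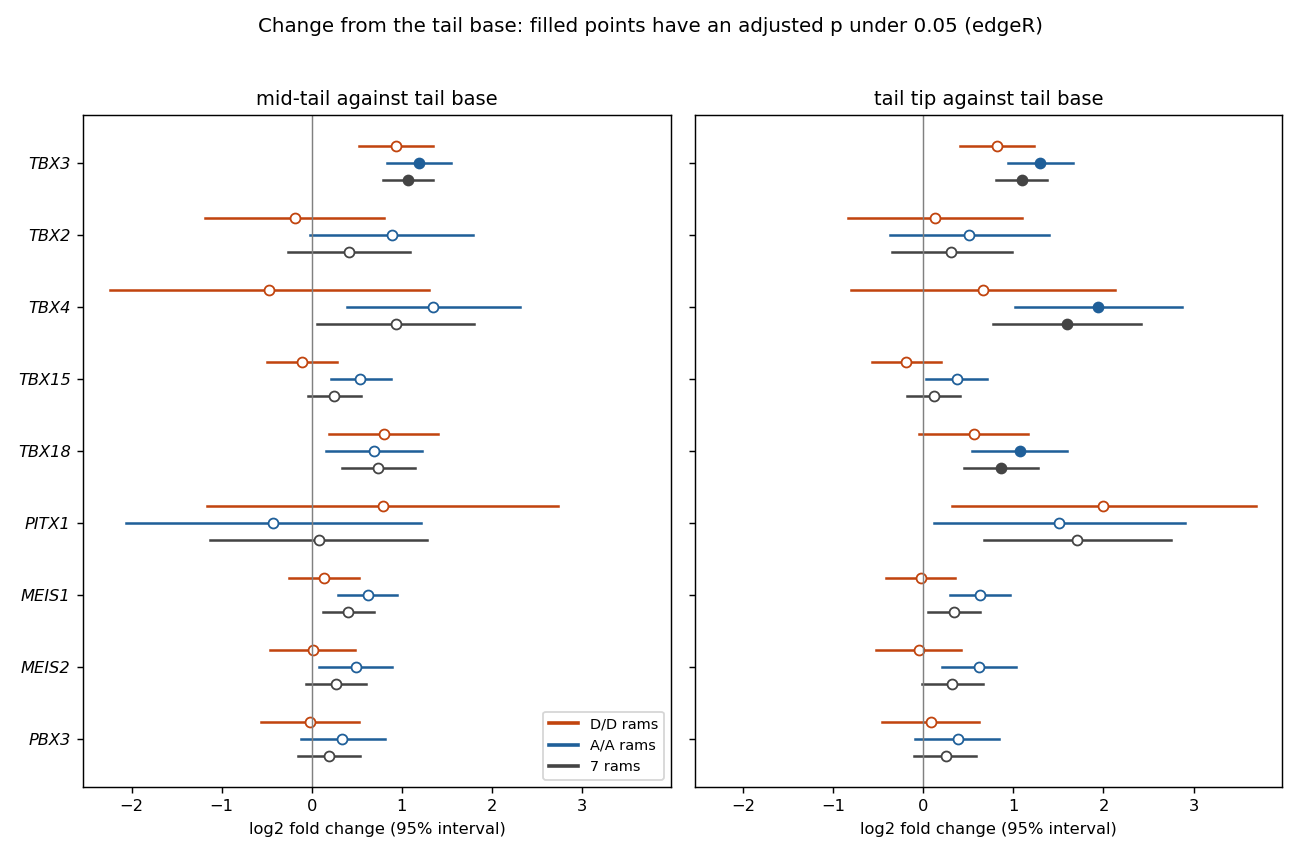
Log2 fold change against the tail base (horizontal axes) with 95% intervals for *D/D* rams (top line of each gene), *A/A* rams (middle) and 7 rams (bottom), at the mid-tail (left) and tail tip (right), from edgeR with the ram as a block. Filled points have an adjusted p under 0.05: *TBX3* in *A/A* and in 7 rams at both positions, and *TBX4* and *TBX18* in *A/A* and in 7 rams at the tip.

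*TBX2* is the closest relative of *TBX3* and a repressor as well, and its level was not called at any position. Its tip had 2.09, 3.17 and 1.96 CPM in the 3 *D/D* rams, with 1.97, 2.51 and 1.97 CPM at the base of the same rams. In the 4 *A/A* rams the tip had 3.96, 1.89, 0.993 and 2.01 CPM and the base 1.90, 0.557, 1.05 and 2.11 CPM. The positions overlapped in both genotypes and 4 of 7 rams were higher at the tip. The mid-tail had 1.31, 1.81 and 2.58 CPM in *D/D* rams, against 3.71, 4.96, 0.629 and 2.36 CPM in *A/A* rams, which held both the highest and the lowest value. The log2 fold change over 7 rams was 0.31 ± 0.32 (95% interval of -0.35 to 0.98, adjusted p = 0.656). *TBX2* was also the member with the highest median difference between libraries of the same ram and position, 0.53 on the log2(CPM + 0.5) scale, against 0.18 for *TBX3*. The added 0.5 CPM dampens such differences for *TBX4* and *PITX1*. The largest single difference was 1.18 for *TBX4* and 1.11 for *TBX18*, against 1.07 for *TBX2*.

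*TBX4*, a hind limb and lung T-box gene, lies close to *TBX2* on chromosome 11, with 46937 bases and 2 annotated genes between them, and had few reads in tail skin. At the tip it had 0.174, 0.0576 and 0.0753 CPM in the *D/D* rams, against 0.910, 0.603, 0.319 and 0.328 CPM in the *A/A* rams. At the base it had 0.123, 0.0339 and 0.0308 CPM in the *D/D* rams, against 0.173, 0.0928, 0.0927 and 0.162 CPM in the *A/A* rams. The *A/A* tip values all lay above the *A/A* base values (1.53% of genes did so), whereas the *D/D* positions overlapped. These levels rest on few reads, 8 at the tip and 5 at the base over the *D/D* rams and 67 and 13 over the *A/A* rams. Relative to the totals, tip over base was 1.64 in *D/D* rams (95% interval of 0.473 to 6.37, exact, counting error only) and 4.38 in *A/A* rams (2.39 to 8.64).

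The log2 fold change of *TBX4* at the tip was 1.59 ± 0.39 over 7 rams (adjusted p = 0.0248), 0.66 ± 0.69 in *D/D* rams (adjusted p = 0.781) and 1.94 ± 0.44 in *A/A* rams (adjusted p = 0.036). The call over 7 rams was lost without ram 835507, 871772, 871784 or 871932 (adjusted p of 0.0577 to 0.0816), and the *A/A* call was lost without any 1 of the 7 rams (0.0512 to 0.144). With library 1 of each ram and position alone, the 7-ram value was 2.34 ± 0.53. At the tip and at the mid-tail, every *D/D* ram had less *TBX4* than every *A/A* ram (mid-tail 0.0469, 0.0614 and 0 CPM in *D/D*, against 0.631, 0.401, 0.140 and 0.276 CPM in *A/A*), a separation found for 5.16% of genes at the tip and 3.78% at the mid-tail. Both sites lay further from the base in *D/D* rams, so that they are not equivalent places. The filter left *TBX4* and *PITX1* out of the comparisons between genotypes at a position. For positions, *TBX4* passed mainly through the *A/A* mid-tail and tip, so that its call there is not independent of the filter. With no filter the *A/A* call of *TBX4* was lost. The difference of its change between the genotypes was -1.28 ± 0.89 at the tip (adjusted p = 0.803), with -1.82 ± 0.97 for the mid-tail (adjusted p = 0.884).

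*PITX1*, the factor upstream of *TBX4* in the hind limb, had few reads as well, with 74 at the tip and 20 at the base over 7 rams. At the tip it had 0.348, 0.288 and 0.301 CPM in the *D/D* rams, against 0.325, 0.713, 0.142 and 0.328 CPM in the *A/A* rams. At the base it had 0.0411, 0.0339 and 0.154 CPM in the *D/D* rams, against 0.345, 0, 0.0309 and 0.162 CPM in the *A/A* rams. The *D/D* tips lay above all *D/D* bases (9.33% of genes did so), the *A/A* positions overlapped, and *A/A* ram 835507 was not higher at the tip. The mid-tail, with 20 reads, had 0.141, 0.0614 and 0.229 CPM in *D/D* rams, against 0.197, 0.146, 0.035 and 0.0306 CPM in *A/A* rams. The log2 fold change over 7 rams was 1.71 ± 0.49 at the tip (adjusted p = 0.053, just short of the threshold), with 0.08 ± 0.57 for the mid-tail (adjusted p = 0.976). DESeq2 on the ram sums called *PITX1* at the tip (adjusted p = 0.0288). Between tip and mid-tail, *PITX1* had a log2 fold change of 1.63 ± 0.49 over 7 rams that did not pass the adjustment (adjusted p = 0.382). No member was called between tip and mid-tail over 7 rams, where 14 genes were (0.072%), *PITX1* alone had an unadjusted p under 0.05 (5.24% of genes did), and DESeq2 called no member either. Within *D/D* rams and within *A/A* rams no member and no gene (0%) was called between tip and mid-tail.

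*TBX18* marks the dermal condensate and papilla of the mouse hair follicle, and *TBX15* sets the border between back and belly skin in mouse. *TBX18* had 6.26, 6.25 and 7.08 CPM at the tip of the *D/D* rams, against 11, 8.45, 6.49 and 11.5 CPM in the *A/A* rams. At the base it had 4.89, 4.03 and 4.28 CPM in the *D/D* rams, against 4.66, 7.05, 3.40 and 3.08 CPM in the *A/A* rams. Each of the 7 rams was higher at the tip than at its own base, which 3.65% of genes showed. The tip and base did not overlap in *D/D* rams (9.33% of genes were as clear), and in *A/A* rams only the base of ram 871772, at 7.05 CPM, reached the tip values of another ram.

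The log2 fold change of *TBX18* was 0.86 ± 0.19 over 7 rams (adjusted p = 0.0144), 0.56 ± 0.28 in *D/D* rams (adjusted p = 0.449) and 1.07 ± 0.25 in *A/A* rams (adjusted p = 0.0426). Without *A/A* ram 871932, whose tip was 3.74 times its base, the 7-ram value was 0.68 ± 0.18 and no longer called (adjusted p = 0.0624), and the *A/A* call was lost without any 1 of the rams except 871772. At the mid-tail the 7-ram value was 0.73 ± 0.19 (adjusted p = 0.129). The mid-tail had 11, 5.13 and 7.45 CPM in the *D/D* rams, against 8.96, 6.13, 7.17 and 6.1 CPM in the *A/A* rams, so that *D/D* ram 871787 was highest there and not at its tip. The mean level at the mid-tail was 7.85 ± 2.95 CPM in *D/D* rams (SD, n = 3) and 7.09 ± 1.34 CPM in *A/A* rams (SD, n = 4).

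*TBX15* showed no such step. It had 28.0, 31.8 and 24.9 CPM at the tip of the *D/D* rams, against 45.2, 29.3, 24.3 and 44.4 CPM in the *A/A* rams, and 32.5, 35.3 and 27.1 CPM at the base of the *D/D* rams, against 29.3, 30.8, 23.9 and 23.6 CPM in the *A/A* rams. All 3 *D/D* rams were lower at the tip than at the base, and 3 of 4 *A/A* rams were higher. At the mid-tail it had 34.4, 27.6 and 25.6 CPM in the *D/D* rams, against 48.4, 42.4, 24.6 and 45.2 CPM in the *A/A* rams, where all 4 were higher than at their base. How many genes moved in these directions in the same rams was not counted. The log2 fold change was 0.12 ± 0.14 over 7 rams (adjusted p = 0.719), -0.19 ± 0.18 in *D/D* rams and 0.37 ± 0.16 in *A/A* rams. The difference between these changes, -0.56 ± 0.24, did not pass the adjustment (adjusted p = 0.789).

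**Figure D3:**
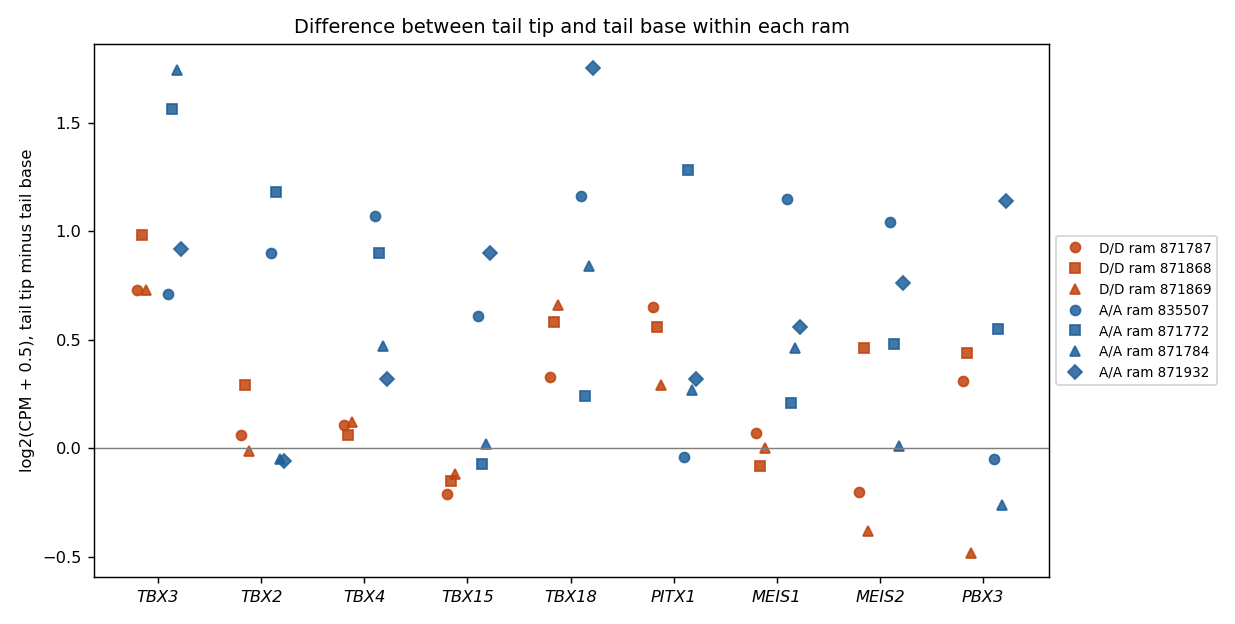
Difference between tail tip and tail base within each ram on the log2(CPM + 0.5) scale (vertical axis) for the 9 genes (horizontal axis), with a symbol per ram and *D/D* rams left of *A/A* rams. *TBX3* lies above 0 in all 7 rams (0.71 to 1.74), and for *MEIS1* the *D/D* rams lie between -0.08 and 0.07 and the *A/A* rams between 0.21 and 1.15. The difference of the *MEIS1* change between genotypes was not called (adjusted p = 0.789, edgeR), and how many genes split the genotypes in this way was not counted.

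The HOX cofactor genes *MEIS1*, *MEIS2* and *PBX3* were not called in any comparison. *MEIS1*, a proximal marker of the growing limb, had 13.4, 9.54 and 9.79 CPM at the tip of the *D/D* rams, against 37.0, 10.1, 11.7 and 14.4 CPM in the *A/A* rams. At the base it had 12.7, 10.1 and 9.77 CPM in the *D/D* rams, against 16.4, 8.67, 8.37 and 9.60 CPM in the *A/A* rams. Ram 835507 stood above the other 6 rams at each position (30.0 CPM at its mid-tail), in both of its libraries, and the other rams of the genotypes overlapped. Its tip libraries had 42.6 and 29.9 CPM. At the mid-tail the other rams had 15.2, 11.2 and 9.57 CPM in *D/D*, against 14.3, 10 and 14.4 CPM in *A/A*.

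*MEIS1* had a log2 fold change at the tip of -0.03 ± 0.18 in *D/D* rams (adjusted p = 0.97) and 0.63 ± 0.16 in *A/A* rams (adjusted p = 0.0547), with 0.34 ± 0.14 over 7 rams (adjusted p = 0.181). All 4 *A/A* rams were higher at the tip, by 0.21 to 1.15 on the log2(CPM + 0.5) scale, and the 3 *D/D* rams moved by -0.08 to 0.07. How many genes separated the genotypes in this way was not counted, so that the split cannot be called particular to *MEIS1*. Without ram 835507 the *A/A* value was 0.45 ± 0.17 (adjusted p = 0.267). The *A/A* change at the tip was called with DESeq2 on the ram sums (adjusted p = 0.00807). The *D/D* change minus the *A/A* change was -0.66 ± 0.24 at the tip (95% interval of -1.16 to -0.16, adjusted p = 0.789) and -0.48 ± 0.24 without ram 835507.

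*MEIS2*, the closest relative of *MEIS1*, gave similar values, with -0.05 ± 0.22 at the tip in *D/D* rams, 0.62 ± 0.19 in *A/A* rams (adjusted p = 0.127) and a difference of -0.67 ± 0.29 (adjusted p = 0.789). Its tip had 7.43, 8.59 and 5.72 CPM in the *D/D* rams, against 16.5, 6.94, 5.32 and 7.5 CPM in the *A/A* rams, with ram 835507 again the highest. Its base had 8.59, 6.1 and 7.61 CPM in the *D/D* rams, against 7.81, 4.82, 5.28 and 4.21 CPM in the *A/A* rams, and all 4 *A/A* rams were higher at the tip. The mid-tail had 7.74, 6.32 and 8.31 CPM in the *D/D* rams, against 12.9, 5.84, 6.15 and 6.86 CPM in the *A/A* rams. *PBX3*, a partner of MEIS and HOX proteins on DNA, had 17.0, 11.6 and 6.70 CPM at the tip of the *D/D* rams, against 20.4, 11.7, 10.3 and 14.4 CPM in the *A/A* rams. At the base it had 13.6, 8.4 and 9.52 CPM in the *D/D* rams, against 21.2, 7.84, 12.4 and 6.28 CPM in the *A/A* rams. The mid-tail had 13.2, 9.42 and 8.48 CPM in the *D/D* rams, against 21.2, 11.5, 16.1 and 8.73 CPM in the *A/A* rams, and the genotypes overlapped at every position. Its log2 fold change at the tip was 0.25 ± 0.16 over 7 rams (95% interval of -0.10 to 0.59, adjusted p = 0.459). Ram 835507 had the most *PBX3* of the 7 rams at each position, 21.2 CPM at its base, 21.2 at its mid-tail and 20.4 at its tip.

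In *D/D* rams, 0 members were called between tip and base, where 110 of 19444 genes were (0.566%), and 2 members had an unadjusted p under 0.05, *TBX3* and *PITX1*, as did 12.3% of genes. DESeq2 on the ram sums called 1, *TBX3*, among 518 genes. For the *D/D* mid-tail 0 members and 0 genes (0%) were called, 2 members (*TBX3* and *TBX18*) and 6.74% of genes had an unadjusted p under 0.05, and DESeq2 called *TBX3* among 40 genes. In *A/A* rams 3 members rose at the tip, beside 164 genes that rose (0.843%), and 1 rose at the mid-tail, beside 5 genes (0.0257%). The median log2 fold change of the 9 members at the tip was 0.13 in *D/D* rams and 0.63 in *A/A* rams, beside -0.01 over all genes in both.

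Between genotypes, 0 of the 7 members tested at the base, mid-tail and tip were called, as were 0 genes (0% of 17738, 17996 and 17842). For the mid-tail and tip, the distance from the base differed between genotypes as well. An unadjusted p under 0.05 was found for 3.2% of genes for the base, 5.63% for the mid-tail and 10.2% for the tip, and DESeq2 called 18, 31 and 65 genes there. Of the members, *TBX18* at the tip alone had one, with a log2 fold change of -0.58 ± 0.24 (adjusted p = 0.458). Its tips in *D/D* and *A/A* rams overlapped at 7.08 and 6.49 CPM. The *D/D* change minus the *A/A* change was called for 0 members and 0 genes (0%) at the tip and at the mid-tail, where 6.11% and 5.21% of genes had an unadjusted p under 0.05. At the tip it was negative for 8 of 9 members (median -0.51, with 50.1% of all genes negative), *PITX1* being the exception at 0.49 ± 1.00, and *MEIS1*, *TBX15* and *MEIS2* had an unadjusted p under 0.05. At the mid-tail it was negative for 7 of 9, and *TBX15*, at -0.65 ± 0.24 (adjusted p = 0.884), alone had an unadjusted p under 0.05. DESeq2 on the ram sums called no member in any of these comparisons.

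Of 12 other T-box genes, 6 passed the filter and 0 were called in any comparison. Those with the highest CPM, which ranks reads and not levels per length, were *TBX1*, at -0.20 ± 0.22 between tip and base over 7 rams, the MAX partner gene *MGA* at -0.05 ± 0.14 and *TBX6* at 0.05 ± 0.31. The mesoderm gene *TBXT* had 0 reads at the tip and the forelimb gene *TBX5* 0 reads at the base and, at the tip, 4 reads in *D/D* rams and 45 in *A/A* rams, and neither passed the filter.

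Of 8 other TALE cofactor genes, all tested, 0 rose and 1 fell at the tip over 7 rams, where 525 of 19444 genes fell (2.7%). This was *PKNOX2*, a relative of the MEIS genes, at -0.51 ± 0.14 (adjusted p = 0.0369), with 8.94 ± 2.15 CPM at the tip, against 12.6 ± 2.61 CPM at the base (SD, n = 7). *PBX2* and *TGIF1*, named for their high CPM, were at -0.08 ± 0.11 and 0.08 ± 0.098, and the list's median was -0.07.

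The proteins of the posterior HOX genes can bind DNA together with MEIS or PBX proteins. Over 7 rams, none of the 14 tested of these 16 genes fell at the tip, and 7 rose (2.29% of all genes did). They were *HOXA9*, at 0.68 ± 0.16, *HOXA10*, at 1.14 ± 0.13, *HOXA11*, at 1.5 ± 0.25, *HOXA13*, at 2.48 ± 0.26, *HOXC10*, at 1.37 ± 0.14, *HOXC11*, at 1.16 ± 0.25, and *HOXB13*. *HOXB13* had 0.613 ± 0.425 CPM in *D/D* tips (SD, n = 3) and 4.81 ± 1.32 CPM in *A/A* tips (SD, n = 4), with 3 reads over all bases. *HOXC13*, with the highest CPM of the list, was at -0.37 ± 0.21 (adjusted p = 0.362). The list's median was 0.46, beside 0.34 for the 9 members and -0.02 for all genes.

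**Figure D4:**
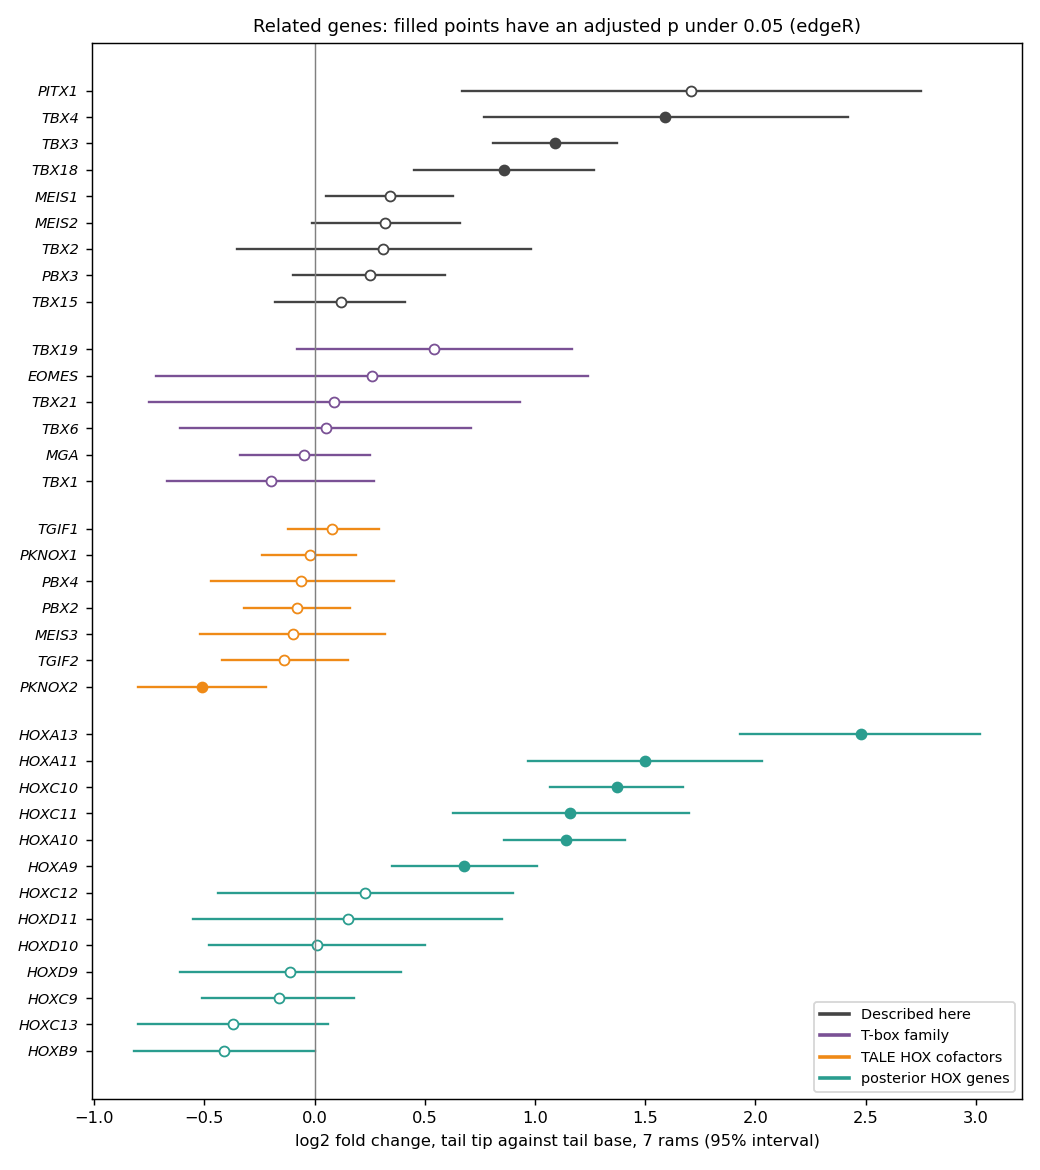
Log2 fold change between tail tip and tail base over 7 rams (horizontal axis, 95% intervals) for the 9 genes and tested genes of the T-box, TALE and posterior HOX lists, with filled points for an adjusted p under 0.05. *HOXB13* is left out, as its near absence at the base would set the scale. *TBX3* (1.09) lies close to *HOXA10* (1.14) and *HOXC11* (1.16), and the TALE cofactors shown other than *PKNOX2* (-0.51) lie between -0.14 and 0.08.

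Over the 21 ram sums, the genes most like each member (Pearson r of log2(CPM + 0.5), up to 3 per member, given as a description with no test, since the ram sums share rams) differed between members. For *TBX3* they were *HOXC10* (0.88), *STMN2* (0.84) and *CLSTN2* (0.84). *HOXC10* also rose at both positions over 7 rams and in *A/A* rams, and the nerve cell marker *STMN2* rose as well, at least at the tip over 7 rams. For *TBX18* they were *ETAA1* (0.85), *FAM124B* (0.85) and *TCF4* (0.82), and for *TBX15* *DUSP26*, *ZNF521* and *MUSTN1* (0.84 each). *TBX2* was closest to *PLXND1* (0.90), *RAB3IL1* (0.87) and *ARRB2* (0.87), *MEIS1* to *SVIL* (0.94), *CDCA7L* (0.92) and *BMF* (0.91), *MEIS2* to *NR2F2* (0.92), *NR2F1* (0.87) and *SLAMF7* (0.87), and *PBX3* to *MXI1* (0.94), *SATB1* (0.91) and *DAPP1* (0.90). The genes with few reads gave *POGZ* (0.88), *CD101* (0.86) and *BMF* (0.86) for *TBX4* and *GPR15LG* (0.74) and *ALKAL2* (0.73) for *PITX1*. Among the members, *MEIS1* and *MEIS2* had an r of 0.81 and *TBX3* and *TBX18* of 0.70, while *TBX15* and *PITX1* were at 0.05.

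Some markers of the cell types of skin also differed along the tail. Of the endothelial, smooth muscle, skeletal muscle and leukocyte markers, 0 were called at the tip over 7 rams. Over 7 rams, 2 of 7 fibroblast markers fell at the tip (*COL1A1* and *COL3A1*, list median -0.60), 2 of 4 melanocyte markers fell (*TYR* and *DCT*, median -1.79), and 2 of 4 dermal papilla markers rose (*CORIN* at 2.87 ± 0.40 and *SOX2* at 1.78 ± 0.35, median 1.17). Of the 7 fibroblast markers, 1 had a positive log2 fold change. Of the 4 dermal papilla markers, 1 had a negative log2 fold change, and all 4 had an unadjusted p under 0.05 (edgeR). Over all genes, 2.29% rose and 2.7% fell at the tip. Of the cartilage and tendon markers, 1 of 4 rose at the tip (median 1.12) and at the mid-tail (median 0.91), *TNMD* at 1.85 ± 0.25 and 1.52 ± 0.25. Another 1 of these 4 had a negative log2 fold change at the tip. At the tip 1 of 4 keratinocyte markers rose (*KRT1*), 1 of 5 adipocyte markers fell (*CIDEC*, median -1.42), and of 3 nerve cell markers *STMN2* rose and *SNAP25* fell. Another 1 of the 5 adipocyte markers had a positive log2 fold change. The adipocyte markers summed to 519 to 822 CPM at the *D/D* tip and 504 to 953 CPM at the *D/D* base. In *A/A* rams they summed to 545 to 787 CPM at the tip and 586 to 859 CPM at the base. Of 3 Schwann cell markers, 1 fell at the tip (median -1.02) and 1 had a positive log2 fold change. The dermal papilla markers, none of them at 0 in all rams of a group, summed to 9.86 to 21 CPM at the *D/D* tip and 9.16 to 16.4 CPM at the *D/D* base, and to 9.93 to 18.7 CPM at the *A/A* tip and 5.22 to 9.36 CPM at the *A/A* base. In *A/A* rams the sums of tip and base thus did not overlap, and in *D/D* rams they did. Fibroblast markers summed to 5950 to 13200 CPM at the *D/D* tip and 10200 to 17100 CPM at the *D/D* base, and to 3170 to 12800 CPM at the *A/A* tip and 12900 to 21200 CPM at the *A/A* base. The part of these markers' cells in the changes of *TBX3*, *TBX4* and *TBX18* was not tested.

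On the genome build of the files, ARS-UI_Ramb_v3.0, *TBX4* (chromosome 11, 11307164 to 11335156) and *TBX2* (chromosome 11, 11382093 to 11392904) lie close together. *TBX3* lies on chromosome 17 (60162178 to 60176145), *TBX18* on chromosome 8 (52046833 to 52076269), *TBX15* on chromosome 1 (96425985 to 96551106) and *PITX1* on chromosome 5 (44090476 to 44102954). *PBX3* (10132793 to 10354260) and *MEIS1* (41789220 to 41936042) are both on chromosome 3, and *MEIS2* is on chromosome 7 (30752847 to 30975115). Counts were made per strand over the exons of a gene. An annotated long noncoding RNA, LOC121816955, overlaps *TBX3*, with a mean of 0.983 CPM and a log2 fold change of 0.88 at the tip (adjusted p = 0.218). The T-box gene next to *TBX3*, *TBX5* at 129276 bases, had a mean of 0.0952 CPM.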

How the data were processed

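Reads of oligo(dT)-selected RNA (CorALL kit) were checked with FastQC 0.11.9, aligned by the authors with ContextMap (using BWA) on the sheep build ARS-UI_Ramb_v3.0, and assigned to RefSeq genes by strand with featureCounts, whose version the sources used here do not give. The table as deposited holds raw counts for 31182 genes in 41 libraries. The 14 tail tip columns are listed among the units as estimated counts, only because the deposited column names hold a word that a unit check reads as a position, and they hold whole raw counts like the rest. No column was left out. The labels list 4 *A/A* rams, all used here, where the methods of the study name fewer. Libraries held 9177395 to 23431409 counts, which leaves *TBX4* and *PITX1* with few reads. The study's cut-offs (adjusted p of at most 0.01, absolute log2 fold change over 1), used there with DESeq2, were tried as a threshold on the edgeR fit described here.

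Counts of a ram and position were summed, scaled with TMM, filtered on low counts and tested in R 4.3.3 with edgeR 4.0.16 (quasi-likelihood), over 19444 genes for positions and 17738 (base), 17996 (mid-tail) and 17842 (tip) between genotypes. The ram was a block for positions, since each ram gave all positions. Deviations of ram sums of a ram correlated over 0.1 in 20 of 21 pairs (0.0173 to 0.872). The model was checked on simulated counts. P-values were adjusted after Benjamini-Hochberg. Alternatives were DESeq2 1.42.0, limma-voom (limma 3.58.1), RLE or library totals, other filters, single libraries, library number as a block, no block, each genotype alone and each ram left out. Named genes are the 9 members, genes of the related lists that were called or had the highest CPM, and the 3 genes most like each member, of which some are not reported here. The members and lists were chosen with earlier results of these data known.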

Additional observations from a re-analysis of the deposited data

Results flagged for a closer look

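Within each group of 4 *A/A* rams, the highest and lowest values of the 9 genes were set against the gap expected in small samples (27 gene and position combinations, of which chance flags about 1 in 20). All 3 values that stood out were of ram 835507. *MEIS1* was 16.4 CPM at its base (next ram 9.60, gap 0.848 of the range) and 37.0 CPM at its tip (next ram 14.4, gap 0.839), and *MEIS2* was 12.9 CPM at its mid-tail (next ram 6.86, gap 0.856). Groups of 3 *D/D* rams were too small for this comparison.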

How the results depend on the processing

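*TBX3* was called over 7 rams at both positions under every alternative tried at the 0.05 threshold. Members called at the tip over 7 rams, 3 in the fit described, were 1 with no replicate block (ram left out of the design), 1 at the study's threshold, 4 with DESeq2 on the ram sums (*PITX1* added) or on each library (*MEIS1* added), 2 with the stricter filter (*TBX4* not tested) and 1 to 3 with a ram left out. At the mid-tail over 7 rams, 1 in the fit described, they were 2 with DESeq2, 3 with each library as a sample in edgeR or DESeq2 and 2 with the library number as a replicate block. In *D/D* rams they were 1 in place of 0 at tip and mid-tail with DESeq2, with each library as a sample (edgeR, DESeq2 or library number as a block) and with the genotype fitted alone, and 0 to 1 at the tip with a ram left out (*TBX3*, called without *A/A* ram 835507 or 871784). In *A/A* rams the 3 at the tip became 5 with each library as a sample (the same 3 tools), 4 with DESeq2 on the ram sums (*MEIS1* added), 2 with no filter or the stricter one (without *TBX4*) and 1 with no block, the genotype fitted alone or the study's threshold, and 1 to 2 with a ram left out. The 1 at the *A/A* mid-tail became 2 with DESeq2 or with the library number as a block, 3 and 4 with each library in edgeR and DESeq2, 0 with library 1 alone, no block, the genotype alone or the study's threshold, and 0 to 1 with a ram left out. Whether the library numbers mark shared punches is not stated. Of all genes at the tip over 7 rams, 970 were called, 1522 with DESeq2 on the ram sums, 2129 with each library in edgeR and 173 with no block. At the *A/A* tip, 317 were called, 836 with DESeq2 on the ram sums and 1337 with each library in edgeR. With the genotype alone there were 80 and with no block 19. At the *A/A* mid-tail, 5 were called, 149 with DESeq2 and 418 with each library in edgeR. At the *D/D* tip, 110 were called, 518 with DESeq2 and 854 with the genotype alone, and at the *D/D* mid-tail 0, 40 and 25. At the mid-tail over 7 rams, 33 were called, 280 with DESeq2 and 432 with each library in edgeR. The causes were not tested, except that fits of single libraries count a ram more than once.

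No called member changed sign. Small values that did were, with library 1 alone, *TBX2* (-0.31), *MEIS2* (0.20) at the *D/D* tip, *TBX15* (0.02) and *PBX3* (0.24) at the *D/D* mid-tail, and the *PBX3* difference between genotypes (0.12 at the tip, 0.10 at the mid-tail). With library totals they were *PBX3* at the *D/D* tip (-0.01) and *MEIS2* at the *D/D* mid-tail (-0.01, and 0 with limma-voom, -0.04 with each library in edgeR or DESeq2, -0.05 with the library number as a block), and *PBX3* there (0 with each library in DESeq2, 0.03 with the block). With a ram left out, the range was -0.34 to 0.11 for *MEIS2* and -0.11 to 0.35 for *PBX3* at the *D/D* tip, and at the *D/D* mid-tail -0.06 to 0.09 for *MEIS2*, -0.11 to 0.05 for *PBX3*, -0.22 to 0 for *TBX15* and -1.49 to 0.16 for *TBX4*. It was -0.10 to 0.42 for *PITX1* at the mid-tail over 7 rams, -0.53 to 0.07 in *A/A* rams, -0.01 to 0.17 for *TBX15* at the tip over 7 rams, and -0.24 to 0.30 for the *TBX18* difference between genotypes at the mid-tail. Library totals moved the median of all genes for the difference of the change at the tip to -0.13. Depth limits *TBX4* and *PITX1* most.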

Other observations

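Among the genes nearest to the 9 members, the long noncoding RNA gene LOC132659581, 1781 bases from *MEIS1*, rose at the tip over 7 rams (log2 fold change 1.70, adjusted p = 0.0248, mean 0.35 CPM), whereas *MEIS1* itself, at 0.34 ± 0.14, was not called. It was picked after its values were seen. The other tested neighbours were not called, among them *BCAS3* beside *TBX2* (0.17, adjusted p = 0.475) and *WARS2* beside *TBX15* (-0.11, adjusted p = 0.705).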
